A study of Mus musculus with 4 samples.

Results

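This report describes 36 cell cycle and DNA replication genes in the gastric corpus of adult mice, measured with microarrays in 4 groups. The genes were chosen by name from the machinery of S phase and mitosis, with earlier results of these data known. Each was read from probe sets annotated to that gene alone. Rrm2 alone had more than 1 such probe set, and the brighter was taken. Of the 36, 35 had such a probe set, out of 22180 genes measured in this way on 41345 probe sets. Expression of Ccnb1, the partner of Cdk1 at mitotic entry, was not analysed here, and Ccnb1 enters only the promoter counts. The members were read in groups: 10 S phase genes, 20 mitotic genes (19 measured), 2 G1 cyclins and 4 others.

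The wild-type (WT) groups were C57BL/6 mice. The AMPK knockout (KO) groups carried Atp4b-cre with floxed alleles of Prkaa1 and Prkaa2, which encode the catalytic subunits of AMPK. Atp4b-cre acts in parietal cells, the acid-secreting cells, so other cells of the KO corpus keep both genes. The KO mice were on a mixed B6 and FVB background, and strain and genotype cannot be told apart. In both genotypes 1 group received metformin at 300 mg/kg and 1 group saline vehicle, by daily intraperitoneal injection for 14 days, in mice of 8 to 10 weeks. There was 1 array per group, and how many mice stand behind an array is not stated in the labels. The study set metformin against vehicle in WT corpus to find targets in mature parietal cells, and did the same in KO corpus, where parietal cells are fewer and less mature per the series' design text.

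Cells that enter division load the MCM helicase onto DNA, unwind it with that helicase in S phase, and supply nucleotides through ribonucleotide reductase and thymidylate synthase. They then build a spindle and separate the chromosomes under Cdk1, the Aurora and Polo kinases and the spindle checkpoint. In the corpus, division takes place mainly in progenitors of the gland isthmus, while mature parietal cells do not divide. AMPK is a kinase that senses low cellular energy, and metformin is known to raise its activity. The measurements are of whole tissue, so fewer cycling cells and less RNA per cycling cell cannot be told apart.

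All values are log2 expression levels, so a difference of 1 is 2-fold. Levels of different genes come from different probe sets and are not compared with each other. The median level of all genes was 5.03, and 25 of the 35 members had a mean at or above it. The 10 below it were Birc5, Bub1, Bub1b, Cenpe, Cenpf, Kif20a, Tpx2, Cdca8, Ccne1 and Foxm1. With 1 array per group no difference between 2 arrays has an error or a p-value, and each is a description of those arrays.

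The arrays carried the markers of corpus tissue. The proton pump gene Atp4a lay between 12.80 and 13.22 and the pepsinogen gene Pgc between 13.99 and 14.02. Over all genes the correlation between arrays was lowest for KO vehicle against WT vehicle (0.966) and highest for the pair of metformin arrays (0.987). Prkaa1 was at 9.46 in WT vehicle, 8.90 in WT metformin, 8.18 in KO vehicle and 8.66 in KO metformin, and Prkaa2 at 8.90, 8.02, 7.19 and 7.52 in that order. All 5 markers of suprabasal squamous cells were at 6.62 to 9.13 in KO metformin and at 5.71 or less elsewhere, while the 3 measured markers of dividing basal squamous cells were at 4.52 or less on every array. Ighm, of B and plasma cells, was at 7.63 and 8.33 in WT and at 11.38 and 10.39 in KO (vehicle, then metformin), and Jchain, of plasma cells, at 3.94 and 3.19 in WT and at 7.02 and 6.08 in KO. Of the same list, the B cell receptor genes Cd79a and Cd79b and the B cell gene Ms4a1 were at 4.35 or less throughout.

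RefSeq promoter windows (build GRCm38.p6) were at hand for 28 of the 36 members. Those of Mcm4, Ccna2, Aurkb, Kif20a, Tpx2, Ccnd1, Foxm1 and Stmn1 were missing. In the 250 bases before the start, on both strands, 3 kinds of short sequence known from cell cycle promoters were searched. They were CCAAT, the box bound by NF-Y; TTTGAA, known as the cell cycle homology region (CHR); and the E2F forms TTTCCCGC, TTTGGCGC, TTTCGCGC and TTTGCCGC. CCAAT was present before 24 of the 28 members (85.7%) against 36.5% of 17491 protein-coding genes. It occurred 2 or more times before 17 of them (60.7%) against 12.0%. CHR letters stood before 6 of 16 mitotic members (37.5%) and 1 of 9 S phase members (11.1%), against 15.1% of protein-coding genes. E2F letters stood before 3 of 9 S phase members (33.3%) and 1 of 16 mitotic members (6.25%), against 2.43%. The same order held in other genes of each phase: CHR letters stood before 31.7% of 63 other mitotic genes and 15.9% of 44 other S phase genes, and E2F letters before 7.94% and 18.2%. A match of letters is not evidence that a factor binds there.

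The 170 bases before the start of 7 members are shown because these genes hold the contrasts described here: the mitotic members Ccnb2, Cdc20 and Cdk1 and the proliferation marker Mki67 with CHR and CCAAT letters, Plk1 with CCAAT alone, and helicase genes with CCAAT or E2F letters. Capitals mark these letters on either strand, so CCAAT can appear as ATTGG, CHR as TTCAAA, and E2F forms reversed. In Mcm6 the first pair of E2F matches overlap each other. All run 5′ to 3′ along the gene's own strand.
Ccnb2 (chr9:70421555-70421724, minus strand): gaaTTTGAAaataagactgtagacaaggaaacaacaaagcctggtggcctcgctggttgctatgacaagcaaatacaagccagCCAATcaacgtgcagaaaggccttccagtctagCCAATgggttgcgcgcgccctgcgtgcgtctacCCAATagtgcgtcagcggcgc
Cdc20 (chr4:118437344-118437513, minus strand): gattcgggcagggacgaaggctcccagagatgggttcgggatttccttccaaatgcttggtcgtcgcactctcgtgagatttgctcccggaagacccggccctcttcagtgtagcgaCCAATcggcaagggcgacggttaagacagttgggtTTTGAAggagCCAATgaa
Cdk1 (chr10:69352913-69353082, minus strand): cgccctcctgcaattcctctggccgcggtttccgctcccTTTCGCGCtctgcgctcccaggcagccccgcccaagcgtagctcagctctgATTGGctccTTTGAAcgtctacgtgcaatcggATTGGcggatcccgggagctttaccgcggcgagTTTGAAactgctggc
Mki67 (chr7:135716380-135716549, minus strand): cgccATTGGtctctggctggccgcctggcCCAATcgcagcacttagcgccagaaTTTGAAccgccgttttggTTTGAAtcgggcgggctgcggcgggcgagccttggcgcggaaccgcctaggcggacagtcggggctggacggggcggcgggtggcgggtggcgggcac
Plk1 (chr7:122159265-122159434, plus strand): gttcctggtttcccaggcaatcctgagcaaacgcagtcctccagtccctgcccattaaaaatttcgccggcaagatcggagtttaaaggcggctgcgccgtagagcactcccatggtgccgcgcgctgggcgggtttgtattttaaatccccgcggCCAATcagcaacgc
Mcm3 (chr1:20820313-20820482, minus strand): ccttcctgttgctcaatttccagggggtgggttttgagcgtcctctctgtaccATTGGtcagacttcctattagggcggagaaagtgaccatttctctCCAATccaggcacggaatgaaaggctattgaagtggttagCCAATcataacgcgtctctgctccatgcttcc
Mcm6 (chr1:128359706-128359875, minus strand): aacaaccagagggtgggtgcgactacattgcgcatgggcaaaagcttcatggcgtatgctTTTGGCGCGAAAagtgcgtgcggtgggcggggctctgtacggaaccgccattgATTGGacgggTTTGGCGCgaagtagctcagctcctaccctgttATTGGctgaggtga

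The helicase genes of S phase did not all have the same order of arrays. Its 6 subunits, Mcm2 to Mcm7, are held in equal numbers in 1 ring. Mcm2, Mcm3, Mcm4, Mcm6 and Mcm7 were highest in WT vehicle, and Mcm5 was lowest there. Mcm7 was at 6.33 in WT vehicle and at 5.69, 5.52 and 5.66 in WT metformin, KO vehicle and KO metformin. That array stands alone, since the other three lie within a narrow band. Mcm3 was at 5.98 in WT vehicle, 5.49 in WT metformin, 5.46 in KO vehicle and 5.70 in KO metformin. Mcm4 ran in the same way, at 5.86, 5.44, 5.44 and 5.66. Mcm5 ran the other way: KO vehicle was highest at 5.49, WT metformin and KO metformin were at 5.19 and 5.15, and WT vehicle lay 0.50 below KO vehicle. The mean level of Mcm5, 5.21, lies close to the median of all genes (5.03). Whether Mcm5 differs from the other subunits was not tested. Mcm2 was at 6.02, 5.74, 5.63 and 5.60, so that both KO arrays lay below both WT arrays. Mcm6 moved least of the 6, between 6.02 and 6.21.

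The other S phase members make or use the building blocks of DNA. Pcna, the sliding clamp of DNA polymerases, was at 8.42 in WT vehicle, 8.39 in WT metformin, 8.08 in KO vehicle and 8.16 in KO metformin. Both KO arrays were below both WT arrays. Rrm1, the large subunit of ribonucleotide reductase, was at 6.95, 6.62, 6.43 and 6.31 in that order, and again both KO arrays were lower. Its small subunit Rrm2 did not follow: it was at 5.24, 5.22, 5.31 and 5.30, the narrowest span of any member (0.09). A dimmer probe set of Rrm2 differed from the first, at 1.94, 1.89, 2.37 and 1.85. Tyms, which makes thymidylate, was lowest in WT vehicle at 5.94 and was at 6.26, 6.28 and 6.35 on the other arrays.

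Among mitotic members, Ccna2, Ccnb2, Plk1 and Bub1 were higher in WT vehicle and KO metformin than on the other arrays, while Cdk1 was lower there. These genes were picked out after their values were seen. Ccna2, the cyclin of S and G2 phases, was at 6.62 in WT vehicle, 6.25 in WT metformin, 5.96 in KO vehicle and 6.45 in KO metformin. Ccnb2, a mitotic cyclin, was at 6.47, 5.92, 5.94 and 6.52. The outer arrays in this order were high and the inner ones low for both cyclins. Plk1, the Polo kinase, was at 6.95, 6.49, 6.19 and 6.63, and the checkpoint kinase Bub1 at 4.46, 4.20, 3.84 and 4.35. Cdk1, the kinase that mitotic cyclins activate, did not share this order, at 5.62, 5.96, 5.74 and 5.55. For Cdk1 the same pair of outer arrays were the low ones.

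KO vehicle was the lowest array for 9 of 19 mitotic members (47.4%), against 44.3% of genes at or above the median level and 29.4% of all genes. Genes of the spindle did not share 1 order. Tpx2, which activates Aurora A on spindle microtubules, was at 5.23 in WT vehicle, 5.06 in WT metformin, 4.11 in KO vehicle and 4.94 in KO metformin, so that KO vehicle stood alone. Kif11, the motor that pushes spindle poles apart, was at 5.66, 5.45, 4.90 and 5.14, and Nusap1, which bundles microtubules, at 5.45, 5.39, 4.73 and 5.14. In both, the KO arrays lay below the WT arrays. Kif20a, a motor of cytokinesis, ran from 4.38 in KO vehicle to 4.81 in WT vehicle, and Cenpe, a kinetochore motor, from 4.91 to 5.16 between the same arrays. Aurka itself was at 4.95, 5.28, 5.03 and 5.28, with both metformin arrays above both vehicle arrays. Top2a, which untangles sister chromatids, was at 5.90, 5.81, 5.64 and 5.44, with both KO arrays below both WT arrays.

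The chromosomal passenger complex pairs the kinase Aurkb with Birc5 (survivin) and Cdca8 (borealin). Birc5 was at 4.24 in WT vehicle, 4.81 in WT metformin, 4.91 in KO vehicle and 4.64 in KO metformin. Cdca8 was at 3.99, 4.41, 4.51 and 4.49. For both, WT vehicle was the low array, opposite to Plk1 and Bub1, and both have mean levels below the median of all genes. Aurkb stayed between 5.16 and 5.39. Of the remaining mitotic members, Cdc20 and Ube2c, which work with the ubiquitin ligase that ends mitosis, spanned 0.18 and 0.23. The checkpoint gene Bub1b spanned 0.28, and the kinetochore gene Cenpf spanned 0.32 with KO vehicle highest at 4.71.

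Outside these groups, Mki67, the proliferation marker Ki-67, was at 7.40 in WT vehicle, 7.23 in WT metformin, 6.82 in KO vehicle and 7.45 in KO metformin. Ccnd1, the cyclin of early G1, had the same order of arrays, at 7.36, 7.16, 6.93 and 7.47. Foxm1, a transcription factor of mitotic genes, was at 4.54, 4.45, 4.15 and 4.53. For all 3, KO vehicle was the low array. Stmn1, which binds tubulin and is used as a marker of dividing isthmus cells, went against them, at 5.74, 5.99, 6.08 and 5.33, with KO metformin lowest. Hmgb2, a chromatin protein, was at 6.18, 6.58, 6.49 and 6.35. Ccne1, the cyclin of the step into S phase, stayed between 4.25 and 4.48.

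**Figure D1:**
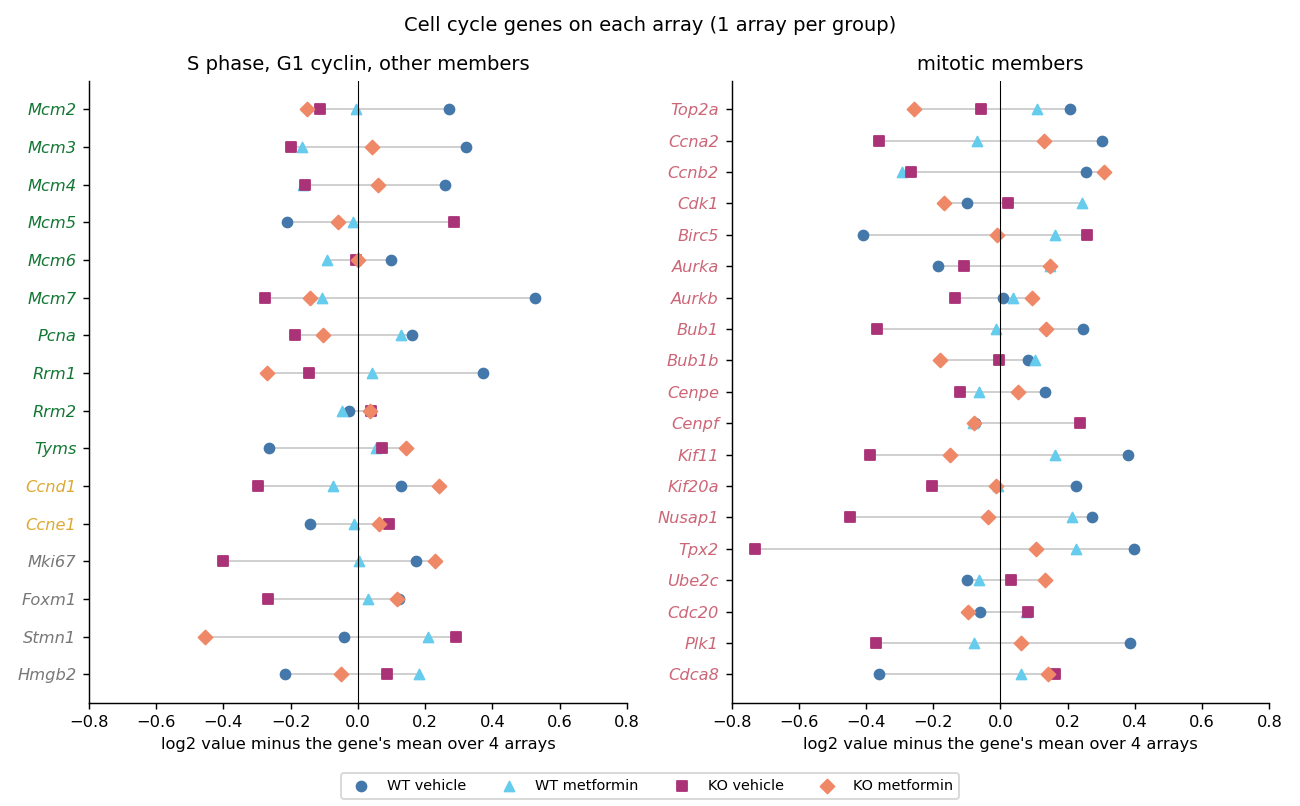
Each member's log2 level on each array, less its mean over the 4 arrays (horizontal axis, log2), with S phase, G1 cyclin and other members on the left and mitotic members on the right. Points are single arrays and grey lines join a member's lowest and highest array. KO vehicle lies far to the left for Tpx2, at 4.11 against 5.23 in WT vehicle, and Rrm2 spans only 0.09.

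Over the 4 arrays the median member varied less than the median gene. Their range from lowest to highest array had a median of 0.43, from 0.09 for Rrm2 to 1.13 for Tpx2. It was 0.51 over all genes and 0.54 over the 11090 genes at or above the median level. A range of 2-fold or more was reached by 1 of 35 members (2.86%), against 9.72% of all genes. WT vehicle was the highest array for 17 of 35 members (48.6%), for 7 of 10 S phase members (70.0%) and for 9 of 19 mitotic members (47.4%). It was the highest array for 30.1% of all genes and for 46.2% of genes at or above the median level. Of the 25 members at or above that level it was highest for 12 (48.0%). KO vehicle was the lowest array for 15 of 35 members (42.9%), against 44.3% of genes at or above the median level and 29.4% of all genes.

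Under vehicle, KO minus WT, 22 of 35 members were lower in KO and 13 higher, and the median difference was -0.26. S phase members had a median of -0.37 with 7 of 10 lower, and mitotic members -0.25 with 12 of 19 lower. The genes at or above the median level had a median of -0.22 with 66.9% lower, and all genes 0.03 with 47.3% lower. Tpx2 (-1.13) was the only member past 2-fold, or 1 of 35 (2.86%), where 7.24% of all genes and 10.4% of genes at or above the median level passed. Its mean level lies below that median, so the size of its difference is not read as an exact fold. Past 1.5-fold were 8 members (22.9%), against 26.5% of all genes. Lower in KO were Mcm7 (-0.80), Kif11 (-0.77), Plk1 (-0.76), Nusap1 (-0.72), Ccna2 (-0.66), Bub1 (-0.61) and Tpx2, and Birc5 was higher (0.67). Next in size among S phase members were Mcm3 (-0.52) and Rrm1 (-0.52), with Mcm5 (0.50), Tyms (0.34) and Rrm2 (0.07) highest. Mitotic members highest in KO after Birc5 were Cdca8 (0.52) and Cenpf (0.31). The shares past either threshold were thus no larger among members than among all genes.

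The vehicle difference held its sign under 4 ways of scaling the arrays (as deposited, cyclic loess, centring on the median, and cyclic loess with the trend on gene span removed) for 31 of 35 members, 21 lower and 10 higher. The exceptions were Mcm6, Rrm2, Ube2c and Cdc20. Tpx2 lay between -1.25 and -1.07 and Mcm7 between -0.84 and -0.74. The S phase median shrank to -0.21 after cyclic loess and -0.22 with the span trend removed, and the mitotic median to -0.22 and -0.15, while that of genes at or above the median level went to -0.07 and 0.00. Smooth muscle markers moved on the same array: the log2 of the summed level of their 5 genes was 13.65 in WT vehicle, 13.70 in WT metformin, 12.57 in KO vehicle and 13.22 in KO metformin. Isthmus progenitor markers (Sox9, Lrig1, Sox2, Bmi1 and Stmn1, of which the last is a member) summed to 10.15, 9.71, 9.41 and 10.12. Sox9 carried most of that sum, at 9.43, 8.83, 8.53 and 9.61, while Lrig1, Sox2, Bmi1 and Stmn1 were each lower in KO metformin than in WT vehicle. The mean log2 level of the 5 was 7.06, 6.83, 6.53 and 6.67. Parietal cell markers, 8 in all, summed to 14.80, 14.47, 14.28 and 14.50. The part of these cell types in the members' differences was not tested.

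In WT mice, metformin minus vehicle had a median of -0.23 over S phase members, with 8 of 10 lower, and -0.06 over mitotic members, with 11 of 19 lower. Genes at or above the median level had -0.14 with 65.3% lower. No member passed 2-fold, against 1.34% of all genes and 1.7% of genes at or above the median level. Mcm7 (-0.63) alone passed 1.5-fold, which is 2.86% of members against 11.0% of all genes. Mcm3 (-0.49) and Mcm4 (-0.42) were next among S phase members, and Tyms (0.32), Mcm5 (0.20) and Rrm2 (-0.02) were at the upper end. Among mitotic members Ccnb2 (-0.55), Plk1 (-0.46) and Ccna2 (-0.37) were lowest and Birc5 (0.57), Cdca8 (0.42) and Cdk1 (0.34) highest. The helicase and cyclin genes that read lower with metformin thus stood beside passenger complex genes and Cdk1 that read higher. Both the WT response and the vehicle comparison use the WT vehicle array, so their low Mcm7 values are not separate observations.

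In KO mice, metformin minus vehicle had a median of 0.04 over S phase members and 0.19 over mitotic members, with 6 of 10 and 12 of 19 higher. The S phase median turned to -0.03 after cyclic loess and -0.04 with the span trend removed, and the mitotic median stayed between 0.19 and 0.26 over the 4 scalings. Genes at or above the median level had a median of 0.11, which went to 0.03 after cyclic loess and -0.01 with the span trend removed. No member passed 2-fold, against 2.51% of all genes and 3.06% of genes at or above the median level. Past 1.5-fold were Tpx2 (0.83) and Mki67 (0.63), higher, and Stmn1 (-0.75), lower, or 8.57% of members against 14.8% of all genes. Ccnb2 (0.57), Bub1 (0.51), Ccna2 (0.49) and Plk1 (0.43) were also higher with metformin, as was Ccnd1 (0.54). Cenpf (-0.32), Birc5 (-0.27) and Top2a (-0.20) were the lowest mitotic members. Mcm5 (-0.34), Rrm1 (-0.13) and Mcm2 (-0.04) were the lowest S phase members, and Mcm3 (0.24), Mcm4 (0.22) and Mcm7 (0.14) the highest. This comparison shares the KO vehicle array with the vehicle comparison, and KO metformin is the array with suprabasal squamous markers, whose summed level (log2) was 10.71 there and 6.59 to 7.33 elsewhere. The 3 measured markers of dividing basal squamous cells were below the median level on every array. Their mean was 3.35 and 3.31 in WT and 4.12 and 3.92 in KO (vehicle, then metformin). The part of squamous cells in the members' differences was not tested.

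Between genotypes under metformin the members differed little. The median of KO minus WT was 0.02 over S phase and 0.00 over mitotic members, and 0.02 over genes at or above the median level. No member passed 2-fold, against 0.974% of all genes and 0.92% of those at or above the median level. Ccnb2 (0.60), higher in KO, and Stmn1 (-0.66), lower, passed 1.5-fold, or 5.71% of members against 6.37% of all genes. Next lowest were Cdk1 (-0.41), Top2a (-0.37), Rrm1 (-0.31) and Kif11 (-0.31), and Pcna (-0.23) and Mcm2 (-0.14) followed Rrm1 among S phase members. Next highest were Ccnd1 (0.32), Mki67 (0.225), Mcm4 (0.22), Mcm3 (0.21), Ccna2 (0.20) and Ube2c (0.19), and Mcm6 (0.09) was next among S phase members. Under both treatments 10 of 35 members (28.6%) were lower in KO, against 22.2% of all genes and 3329 of the 11090 genes at or above the median level. They were Mcm2, Mcm7, Pcna, Rrm1, Top2a, Bub1b, Kif11, Kif20a, Nusap1 and Tpx2, of which Mcm7 (-0.03) and Kif20a (-0.01) were close to 0 under metformin.

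**Figure D2:**
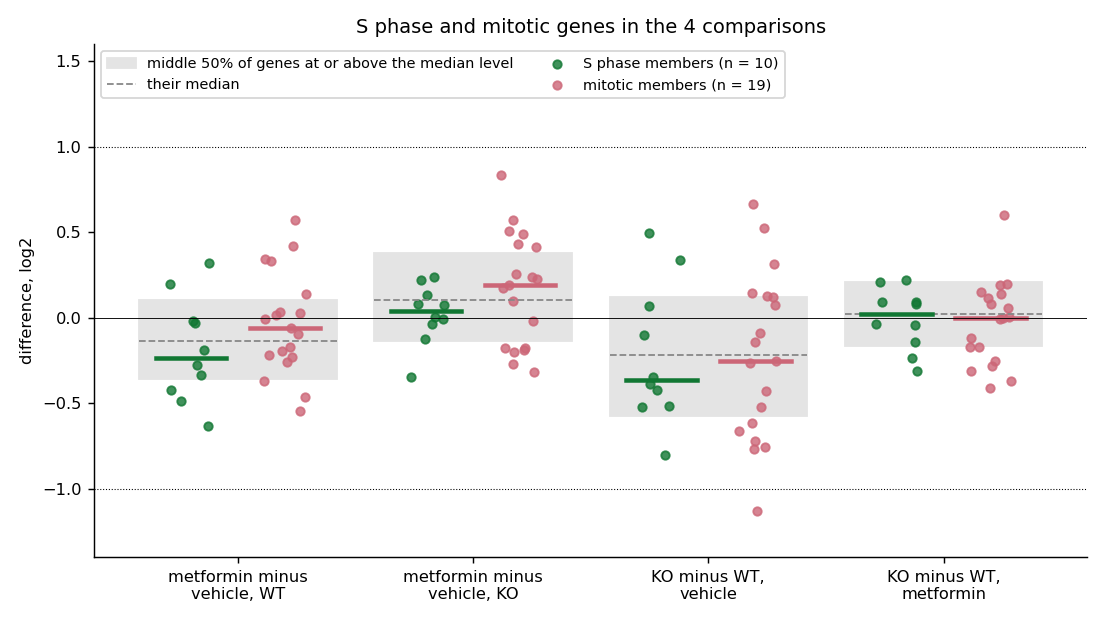
Log2 differences (vertical axis) of the 10 S phase and 19 mitotic members in the 4 comparisons; points are genes, coloured bars list medians, and the grey box and dashed line the middle 50% and median of genes at or above the median level. In each comparison the list medians lie inside the box, and Tpx2 under vehicle (-1.13) is the only point beyond a dotted line at 2-fold.

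S phase and mitotic members can be set side by side in each comparison, without a test of the gap between them. Their medians were -0.23 and -0.06 for metformin in WT, 0.04 and 0.19 for metformin in KO, -0.37 and -0.25 for genotype under vehicle, and 0.02 and 0.00 for genotype under metformin. Under vehicle the mitotic members ran from -1.13 to 0.67 and the S phase members from -0.80 to 0.50. Both mitotic extremes, Tpx2 and Birc5, have mean levels below the median of all genes. The 11 mitotic members at or above it ran from -0.77 to 0.14. That is narrower than the span of the 10 S phase members, which all lie at or above it. The difference between the responses, KO minus WT, had a median of 0.20 in both groups and of 0.26 over genes at or above the median level, all as deposited. After cyclic loess it was 0.06 over S phase and 0.24 over mitotic members, and with the span trend removed 0.06 and 0.31. Over genes at or above the median level it was 0.09 after cyclic loess and 0.01 with the span trend removed. For metformin in KO the medians of the groups also parted further under those scalings, at -0.03 and 0.26 after cyclic loess and -0.04 and 0.22 with the span trend removed.

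The metformin differences in WT and in KO, which share no array, ran in opposite directions for 26 of 35 members (74.3%). All genes did so in 61.6% and genes at or above the median level in 65.9%. Among the members at or above the median level it was 17 of 25 (68.0%). In 17 members (48.6%) the level was lower with metformin in WT and higher in KO, and in 9 the reverse. The first pattern held for 46.6% of genes at or above the median level and 30.2% of all genes. Across the 35 members the 2 differences had a Pearson correlation of -0.54 and a Spearman correlation of -0.56, against -0.34 for both over all genes. At or above the median level they were -0.53 and -0.52 over the 25 members, against -0.40 and -0.37 over genes. Genes on 1 set of arrays share their RNA and normalization and are not independent, so this is a description. Mcm3, Mcm4, Mcm7, Ccna2, Ccnb2, Bub1, Plk1, Tpx2, Ccnd1 and Mki67 were lower in WT and higher in KO, while Mcm5, Cdk1, Birc5, Stmn1 and Hmgb2 were the reverse. With the span trend removed the WT difference of Mki67 turned from -0.17 to 0.05.

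**Figure D3:**
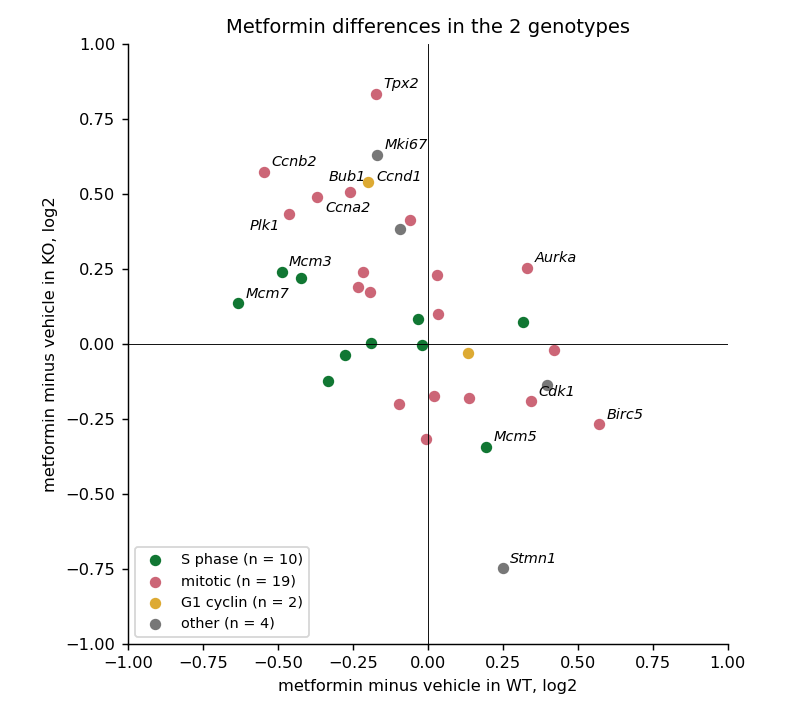
Metformin minus vehicle in WT (horizontal axis, log2) against metformin minus vehicle in KO (vertical axis, log2) for the 35 measured members; each point is 1 gene. Points crowd the upper left and lower right, where the signs differ (26 of 35 members), with Ccnb2 at -0.55 and 0.57 and Stmn1 at 0.25 and -0.75.

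The gap between the responses was 2-fold or more for 2 of 35 members, Ccnb2 (1.12) and Tpx2 (1.01). That is 5.71%, against 11.8% of all genes and 14.8% of genes at or above the median level. Stmn1 lay at -0.997, just short of the threshold before rounding. Plk1 (0.90), Ccna2 (0.86), Birc5 (-0.84), Mki67 (0.80), Mcm7 (0.77) and Bub1 (0.77) followed. After cyclic loess the gap was 0.97 for Ccnb2, 1.15 for Tpx2 and -1.07 for Stmn1.

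An additive model of genotype and treatment was fitted with limma to the 11090 genes at or above the median level, which leaves 1 residual degree of freedom. The fit holds 25 of the 35 members. The 10 members below that level, Tpx2 among them, are not in it. No member passed a Benjamini-Hochberg adjusted p of 0.05 for genotype, and none passed at an unadjusted p of 0.05. Of all genes 0.0451% passed the adjusted threshold, 5 in number, and 3.37% the unadjusted one. For treatment no member passed either threshold, against 0.0% of genes adjusted and 0.289% unadjusted. The largest genotype effect among these 25 members was that of Kif11, -0.54 with a standard error of 0.31. Nusap1 (-0.48, SE 0.31), Mcm7 (-0.42, SE 0.32) and Rrm1 (-0.41, SE 0.30) followed. The largest treatment effect among the 25 was that of Aurka, 0.29 with a standard error of 0.30. A standard error near 0.3 means that effects of the size seen here could not be separated from the residual. That residual also holds any real difference between the metformin responses of the genotypes. Arrays that differ in the other factor are not replicates, so these standard errors do not measure spread within a group.

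Other genes of the cell cycle, from lists drawn up by function with earlier results of these data known, give the setting. For further S phase genes, 52 of 56 measured, the median was 0.04 under vehicle (-0.02 after cyclic loess) and 0.06 for metformin in WT, beside -0.37 and -0.23 for the S phase members. Under vehicle 1 of 52 was past 2-fold lower, E2f8 (-1.39), an E2F repressor, followed by the polymerase subunit Pold3 (-0.68). In either direction 7.24% of all genes and 10.4% of genes at or above the median level passed 2-fold there. Highest in KO were Gins1 (0.87), of the helicase's GINS partner, and Gmnn (0.77), which blocks a new round of MCM loading. Of the 52 genes, 34 had a mean at or above the median level of all genes. Gins1 and Brca2 were among those below it. In WT with metformin E2f8 (-0.69) and Brca2 (-0.64) were lowest and the histone chaperone Asf1b (0.50) and Rpa3 (0.48) highest, and in KO Gins1 (-0.95) and Gmnn (-0.74) were lowest and Asf1b (0.91) and E2f8 (0.82) highest.

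Further mitotic genes, 72 of 77 measured, had medians of -0.06 under vehicle, -0.02 for metformin in WT and 0.03 in KO as deposited. The vehicle median was -0.18 after cyclic loess and -0.14 with the span trend removed, beside -0.22 and -0.15 for the mitotic members, and the KO median was 0.10 after cyclic loess. Past 2-fold under vehicle were 2 of 72 as deposited, 3 after cyclic loess and 0 with the span trend removed. As deposited, 7.24% of all genes and 10.4% of genes at or above the median level passed. The 2 genes as deposited were Ect2 (-1.09), which acts in cytokinesis, and the kinetochore gene Nuf2 (-1.05), both lower. Cenpw (0.77) and Cenpn (0.68), of the inner kinetochore, were highest. Of the 72 genes, 28 had a mean at or above the median level of all genes. Cenpw, Cenpn, Ndc80, Kif14 and Kif4 were among those below it. Ndc80, which works in a complex with Nuf2, was at 4.85, 4.73, 4.97 and 3.95 and so was lowest in KO metformin (-1.02 against KO vehicle), while Nuf2 was at 5.66, 5.42, 4.62 and 5.24 and lowest in KO vehicle. As deposited, partners in 1 complex again differed in order, as with the MCM subunits, but Ndc80 lies below the median level. After cyclic loess, centring or removal of the span trend, 0 of 72 genes were past 2-fold lower with metformin in KO. Kif14 (0.85) and Cks2 (0.84) were highest with metformin in KO, and in WT Anln (-0.70) and Prc1 (-0.53) were lowest and Kif4 (0.54) and Cenpa (0.43) highest.

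Most genes listed as inhibitors and brakes of the cycle read lower in KO vehicle than in WT vehicle. Of 26 listed, 23 were measured and 21 of these were lower (median -0.64). Of the 23, 22 lay at or above the median level, where 66.9% of genes were lower, the median was -0.22 and 10.4% passed 2-fold. No test set the list against the members or other genes. Past 2-fold were 4 of 23, all lower: Mdm2 (-1.38), the retinoblastoma gene Rb1 (-1.08), Cdkn1a (-1.07), which encodes the CDK inhibitor p21, and Gadd45b (-1.02). Mdm2 is on the list but is not itself a brake, since it encodes a ligase that degrades p53. Cdkn1a was at 10.68 in WT vehicle, 10.33 in WT metformin, 9.61 in KO vehicle and 10.50 in KO metformin. KO vehicle was thus the low array, as it was for Tpx2 and Mki67. The count past 2-fold was 1 after cyclic loess, 5 with centring and 2 with the span trend removed, and the median lay between -0.67 and -0.45. Gadd45g (0.66) and Cdkn2a (0.06) were highest. With metformin the median was -0.35 in WT, with Cdkn1c (-0.78) and Wee1 (-0.64) lowest, and 0.21 in KO, with Mdm2 (0.96) and E2f4 (0.90) highest. Under metformin the genotypes differed by a median of 0.11, with Ccng2 (-0.91) and Cdkn2d (-0.57) lowest and Wee1 (0.62) and Cdkn2b (0.50) highest.

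G1 kinases and entry genes, all 15 measured, had a median of -0.36 under vehicle, which went to -0.10 after cyclic loess and 0.02 with the span trend removed. Past 2-fold as deposited were 2 of 15, both lower: Cdk6 (-1.35), a partner of D cyclins, and Cdk2 (-1.12), the partner of cyclins E and A, where 10.4% of genes at or above the median level passed. After cyclic loess 1 gene of the list was past 2-fold lower and 1 higher, and with the span trend removed 0 lower and 1 higher. Cdk6 was at 6.99, 6.19, 5.65 and 6.32 and Cdk2 at 7.46, 6.78, 6.33 and 7.08, each highest in WT vehicle and lowest in KO vehicle. Myc (0.91), a driver of cell growth, was higher in KO under vehicle and also under metformin (0.86). Its level was 6.96 in WT metformin, which differed by -0.04 from WT vehicle, 7.91 in KO vehicle and 7.81 in KO metformin. The proto-oncogene thus separated the genotypes on both pairs of arrays, which none of the members did to that extent. With metformin the median was -0.10 in WT and 0.24 in KO, where Cdk2 (0.75) and Cdk6 (0.67) were highest.

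**Figure D4:**
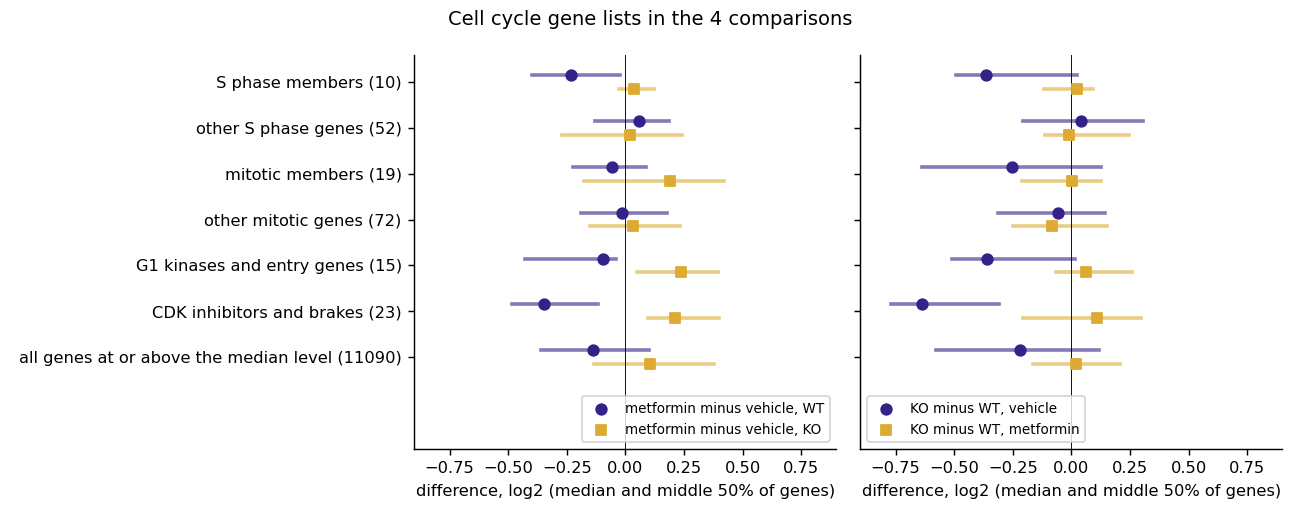
Median (points) and middle 50% of genes (lines) of the log2 differences for each list of cell cycle genes and for genes at or above the median level, with metformin responses on the left and genotype differences on the right; numbers in brackets are genes measured. CDK inhibitors and brakes lie farthest to the left under vehicle (-0.64), and the further S phase and mitotic lists lie at 0.04 and -0.06 as deposited, the latter at -0.18 after cyclic loess.

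Gene span and level were set against the differences as a check of technical trends. Across 10548 protein-coding genes at or above the median level the Spearman correlation of the vehicle difference with gene span was -0.26, and across the 35 members it was -0.21. For the WT response it was -0.30 and -0.16. The members at or above the median level had a median vehicle difference of -0.35 (25 genes), and those below it -0.17 (10 genes). These values describe trends that run through the arrays, and their part in the members' differences was not tested.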

How the data were processed

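Total RNA of gastric corpus was labelled with an Affymetrix WT plus kit and measured on microarrays, per the labels. The authors deposited log2 values; the submitters' processing notes name Partek and RMA (robust multi-array averaging). No source used here gives their versions or settings. The values themselves show the log2 scale. The platform annotation pairs 23521 probe sets with 1 gene, 1814 with several, and 16010 carry no name here. Symbols follow RefSeq by gene identifier (23328 matched). Each gene was read from its brightest probe set by mean over arrays. Groups come from the sample titles. The members and lists were chosen with earlier results of these data known.

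Differences were taken between arrays, and lists were described by medians and counts beside those of all genes. Named are each list's extremes, members past a threshold and the members of neither phase. limma 3.58.1 in R 4.3.3 fitted genotype and treatment, tested on simulated data. Other steps used Python 3.11.15 with pandas 2.3.3, statsmodels 0.14.6 and matplotlib 3.10.9. Alternatives were other scalings (the span trend by lowess, 0.3), filters, probe set means, list means, 1.5-fold and limma variance models. Promoter letters came from RefSeq windows; a gene with several was counted by its most upstream one. Precision is limited by the number of arrays.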

Additional observations from a re-analysis of the deposited data

Results flagged for a closer look

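The metformin difference ran in opposite directions in the genotypes, with a gap of 2-fold or more between KO and WT, for 2 members. For the mitotic cyclin Ccnb2 the gap was 1.12 on the log2 scale: the difference was -0.55 in WT and 0.57 in KO. For the spindle gene Tpx2 the gap was 1.01, from -0.17 in WT to 0.83 in KO, and its mean level lies below the median of all genes. With 1 array per group neither gap was tested, and 11.8% of all genes have a gap as large.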

How the results depend on the processing

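Of 105 alternative values, 97 stayed within the tolerance (0.2 on the log2 scale for medians, 1.5 times for counts), 8 moved and 0 turned a called direction. Several medians are smaller than this tolerance, so the tally is a weak check. The S phase median under vehicle, -0.37 as deposited and -0.21 after cyclic loess, counted as within it. A change of sign between small values was not counted as a turn, such as the S phase median for metformin in KO (0.04 to -0.03). At 1.5-fold instead of 2-fold the members called numbered 1 for metformin in WT, 3 for metformin in KO, 8 for genotype under vehicle and 2 for genotype under metformin. With genes at or above the median level, and likewise at the 75th percentile, 0 members passed 2-fold under vehicle, since Tpx2 falls below both filters. At the 75th percentile the S phase list holds 1 gene, Pcna, so its median was -0.0316 for metformin in WT and -0.23 for genotype under metformin; no mitotic member is left there, so no median was computed. limma called 0 members as deposited, after cyclic loess, under 2 other variance models, with no filter, at the 75th percentile and with probe set means; it was not run on the other scalings. Leaving out an array was not run, since each group has 1. No paired analysis was possible because each group has 1 array and the labels give no replicate numbers that pair them. Signals over background are not given, so low levels carry an unknown part of background.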
